A study of Mus musculus with 32 samples.

Results

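Wild-type (WT) mouse CD4+ T cells that were stimulated in the presence of XCT790 were compared with unstimulated WT CD4+ T cells across all genes. The comparison rests on 4 libraries of stimulated cells with XCT790 and 4 unstimulated libraries, taken by their labels, which is 8 of the 32 libraries of the series. It asks which parts of T cell activation were reached with the inhibitor present and which genes were lost. A further 4 libraries of WT cells stimulated without an inhibitor are given beside them, so that each level with XCT790 can be set against the level that stimulation reached alone.

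CD4+ T cells are the helper and regulatory lineage of T cells. They are activated when the T cell receptor, whose signalling chains form the CD3 complex, is engaged together with the costimulatory receptor CD28. The signals run through calcium and NFAT, NF-kappaB, AP-1 and the mTOR and Myc pathways, switch on cytokine and receptor genes, raise the machinery of growth and metabolism, and switch off genes that keep the resting cell in circulation. XCT790 is an inverse agonist of the orphan nuclear receptor ERR-alpha, the product of Esrra, which is known for driving genes of mitochondrial respiration and of fatty acid oxidation. XCT790 has also been described as an uncoupler of mitochondrial respiration.

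All 3 groups came from C57BL/6J mice and carry the label WT for Nr4a1, the gene of the nuclear receptor Nur77 that the study deleted in its other mice. The CD4+ T cells were taken from lymph nodes (inguinal and axillary) and spleens, organs that also hold B cells, myeloid cells and stroma. Stimulation lasted 12 h with antibodies to CD3 and CD28, and XCT790 was given at 10 µg/ml. Neither the vehicle nor the culture of the unstimulated cells is given in the sources used here. The protocol text applies stimulation to every sample, and the unstimulated group follows each sample's own label. No label ties the 4 libraries of a group to separate animals or cultures, so p-values measure only how far these samples spread, which may be technical variation.

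The 8 libraries each held between 16938473 and 21596749 counts in genes, and 13079 to 14687 genes had at least 1 count. Levels are CPM, that is counts scaled to library size with TMM factors, given per library or as mean ± SD (n = 4), and changes are log2 fold changes with their standard error (SE). A gene said to rise or fall by a value did so by that log2 fold change over unstimulated cells. Adjusted p-values come from edgeR's quasi-likelihood test with Benjamini-Hochberg adjustment across the 12332 genes tested, and those under 0.05 were taken as calls. Where no member of a list was called higher, or none lower, than unstimulated, this was also so at an unadjusted edgeR p under 0.05 and with DESeq2's Wald test. The T cell label was checked against its markers: Cd3e, a chain of the receptor complex, stood at 251 ± 29.3 CPM with XCT790, 254 ± 24.5 CPM with stimulation alone and 377 ± 15.4 CPM unstimulated. Cd4 stood at 438 ± 35.2, 531 ± 55.7 and 741 ± 68.4 CPM in the same order of groups. In bulk RNA, fewer cells of a type and less RNA per cell cannot be told apart.

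The stimulated libraries without inhibitor stood apart in 1 respect that touches every comparison with them. Over 116 genes that other stimulated groups of the series nearly lost, they retained 16, 45.9, 22.5 and 21.4% of the unstimulated level in replicates 1 to 4 (median over the genes). The same genes were at 0.214, 0.257, 0.127 and 0.323% in the XCT790 libraries. Comparisons of XCT790 with stimulation alone are therefore given as deposited and, for part of them, with this share of the unstimulated mean subtracted. Each library's share was taken from every gene alike, and which cells the 116 genes mark was not tested. After the subtraction the myeloid genes C1qa, C1qb, C1qc and Csf1r were still called lower with XCT790 (-2.83, -3.05, -3.26 and -5.23). The B cell genes Cd72, Cr2, Bank1 and Cd22 were not called. The subtracted values are therefore an alternative and not a full correction.

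Stimulated cells with XCT790 differed from unstimulated cells in most genes. With XCT790, 4651 of 12332 genes were called higher than unstimulated (37.7%) and 5099 lower (41.3%), and changes of at least 2-fold made up 2438 genes higher (19.8%) and 3439 lower (27.9%). Stimulation alone called 4254 genes higher (34.5%) and 4783 lower (38.8%), of which 1965 were at least 2-fold higher (15.9%) and 2485 at least 2-fold lower (20.2%). The median over all genes was -0.08 with XCT790 and -0.11 with stimulation alone. Both comparisons share the 4 unstimulated libraries, so their values are set side by side and their likeness was not tested. Counts and medians of stimulation alone over unstimulated cells are as deposited unless said otherwise. With the retained share subtracted, 2119 genes in place of 1584 were called at least 2-fold higher with stimulation alone at a mean of at least 10 CPM. A larger count or median with XCT790 is therefore not read as a larger response. The direct test between XCT790 and stimulation alone called 1036 genes higher (8.4%) and 2491 lower (20.2%), with 40 at least 2-fold higher (0.324%) and 1564 at least 2-fold lower (12.7%). With the retained share subtracted, these counts were 475 higher, 371 lower, 75 at least 2-fold higher and 157 at least 2-fold lower. Without stimulated replicate 2, 580 genes were called higher and 1984 lower in the direct test. The counts of list members given below stand beside the shares over all genes, 37.7% higher and 41.3% lower than unstimulated with XCT790. Counts from the direct test stand beside 8.4% higher and 20.2% lower as deposited, and 3.86% higher and 3.01% lower with the retained share subtracted.

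**Figure D1:**
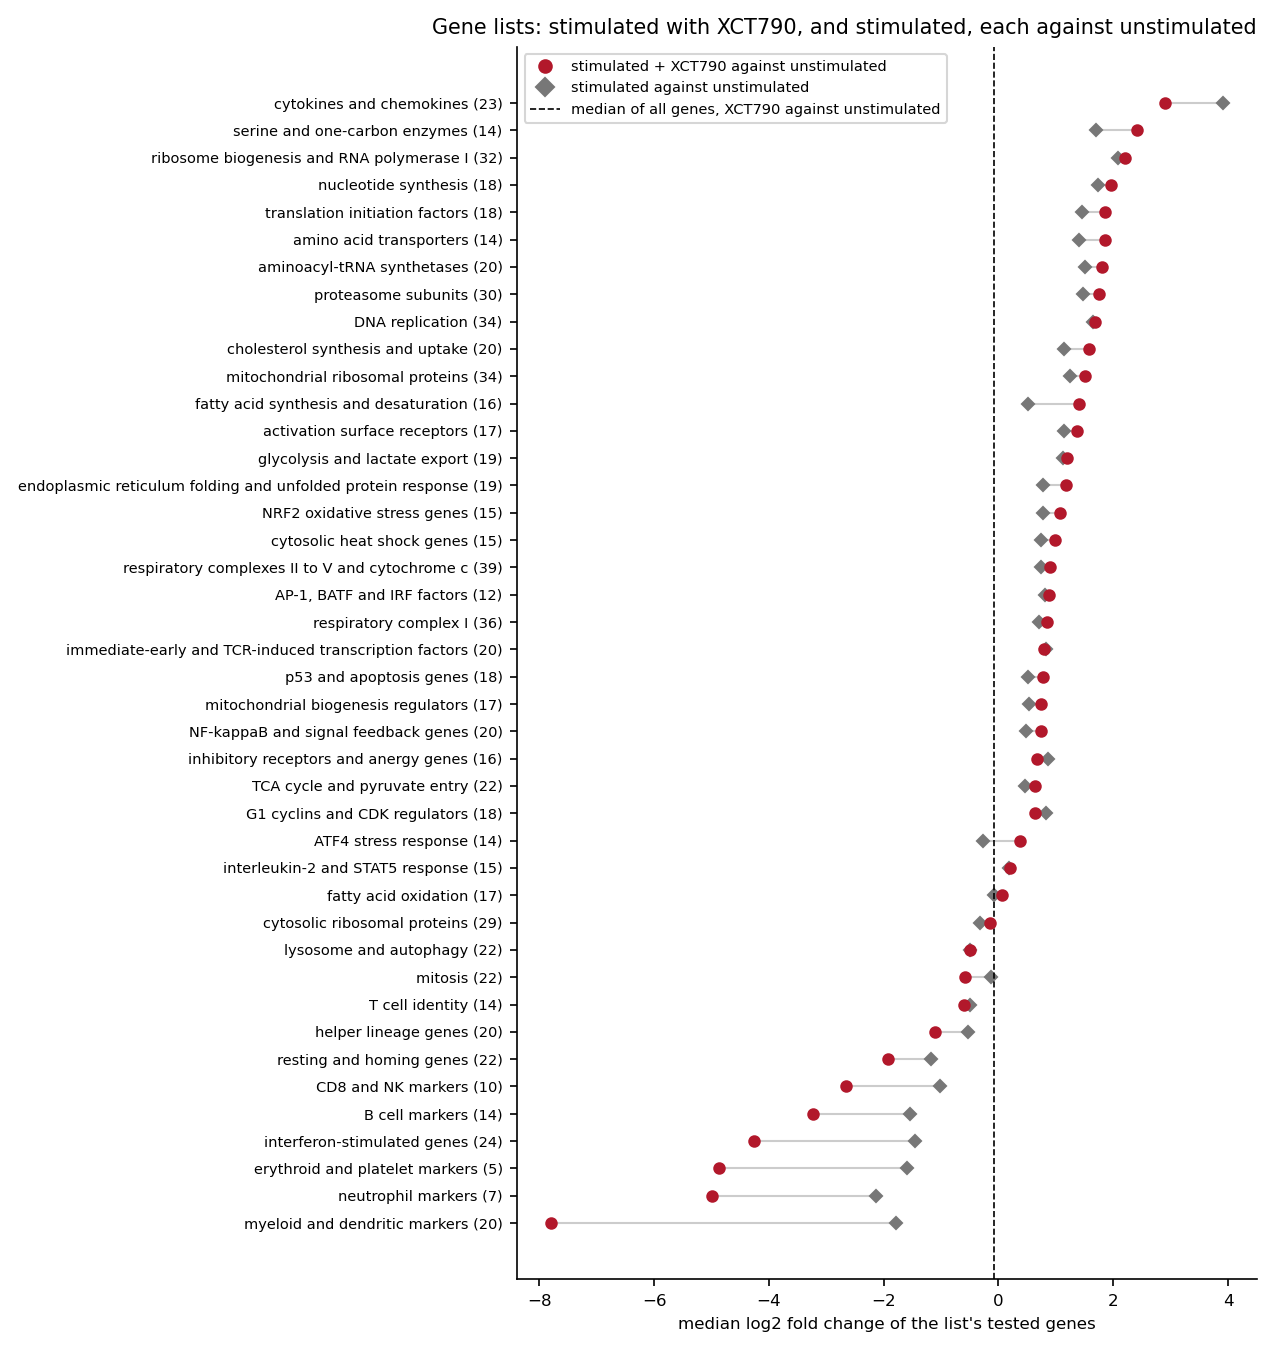
Median log2 fold change of each gene list with at least 5 tested genes (number tested in brackets), for stimulated cells with XCT790 (circles) and stimulated cells (diamonds), each against the same unstimulated libraries. The diamonds are as deposited, without the retained share subtracted. The dashed line marks the median of all genes with XCT790, -0.08; cytokines and chemokines stood at the top, 2.90 with XCT790 and 3.92 with stimulation alone, and myeloid and dendritic markers at the bottom, -7.80 and -1.79.

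The 10 largest rises with XCT790 were those of Fosl1, Crabp2, Bdh2, Ccl22, Akr1c18, Bcat1, Spin4, Ak4, Il2 and Ccl1, ranked among called genes whose 2 groups of libraries did not overlap and whose XCT790 mean reached 10 CPM. Fosl1 (chr19:5447698-5455938), which encodes the AP-1 subunit Fra-1, had 14.5, 9.11, 12 and 14.6 CPM in the XCT790 libraries, 15.7, 5.61, 13 and 17.4 CPM in the stimulated ones and 0, 0, 0.0556 and 0 CPM in the unstimulated ones. A single Fosl1 count was found over the 4 unstimulated libraries, and the ratio of summed levels was 976 with an exact 95% counting interval of 175 to 38598. Bcat1, the cytosolic branched-chain aminotransferase, averaged 241 ± 41.8 CPM with XCT790, 222 ± 57 CPM with stimulation alone and 1.9 ± 0.262 CPM unstimulated (log2 fold change 6.98 with SE 0.23, edgeR adjusted p = 3.6e-20). Ak4, a mitochondrial adenylate kinase, averaged 12.3 ± 2.02, 10.6 ± 2.23 and 0.122 ± 0.056 CPM in these groups. Crabp2, a retinoic acid carrier, averaged 50.9 ± 4.9 CPM with XCT790, 78.3 ± 12.6 CPM with stimulation alone and 0.0807 ± 0.058 CPM unstimulated. Akr1c18 was called higher with XCT790 than with stimulation alone (1.16, edgeR adjusted p = 0.0011), a call that was lost with the retained share subtracted, and for the other 9 no difference was called, which does not show that they reached the same level.

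Of 20 transcription factor genes that T cell receptor signals induce, 11 rose and 8 fell with XCT790 (median 0.80), against 37.7% of all genes higher and 41.3% lower, so that the share that fell was near that of all genes, and stimulation alone also called 11 higher and 8 lower (median 0.82). Irf4, which couples receptor signal strength to effector programmes, had 1787, 1751, 1650 and 1668 CPM with XCT790, 1210, 960, 1024 and 1244 CPM with stimulation alone and 21, 29.2, 27.1 and 26.1 CPM unstimulated. No Irf4 value overlapped between the 3 groups: it rose over unstimulated cells (log2 fold change 6.05 with SE 0.15, edgeR adjusted p = 9.9e-23) and stood higher with XCT790 than with stimulation alone as deposited (log2 fold change 0.63 with SE 0.12, edgeR adjusted p = 0.00012). With the retained share subtracted, the Irf4 difference was 0.13 and no longer called (adjusted p = 0.57). Myc, the driver of growth and metabolic genes in activated T cells, had 485, 369, 498 and 489 CPM with XCT790, 438, 303, 430 and 500 CPM with stimulation alone and 68.8, 77.3, 71.7 and 67.5 CPM unstimulated. Every XCT790 library was above every unstimulated one for Myc (log2 fold change 2.69 with SE 0.14, edgeR adjusted p = 3.2e-16), and XCT790 and stimulated libraries overlapped.

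The 3 Nr4a nuclear receptor genes, sensors of receptor signalling, rose with XCT790. Nr4a1 (chr15:101253902-101274795) had 162, 178, 187 and 186 CPM with XCT790, 130, 153, 175 and 207 CPM with stimulation alone and 45.2, 96.1, 66.7 and 78.6 CPM unstimulated (log2 fold change 1.31 with SE 0.23, edgeR adjusted p = 8.6e-06). The XCT790 and unstimulated Nr4a1 values did not overlap, while the XCT790 and stimulated ones did, with a direct difference of 0.10 (adjusted p = 0.79). The log2 fold changes over unstimulated cells were 3.77 for Nr4a2 and 3.37 for Nr4a3. Egr2 and Egr3, zinc finger factors downstream of calcium and MAP kinase signals, rose by 2.09 and 1.19, as did Rel, an NF-kappaB subunit, by 2.25, and Tbx21, the T helper 1 factor T-bet, by 2.69.

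The 8 members that fell, Egr1, Fos, Fosb, Jun, Junb, Ier2, Ier3 and Klf10, are known as early response genes with short-lived transcripts. Fos, an AP-1 subunit, had 6.97, 9.65, 7.5 and 8.85 CPM with XCT790, 61.5, 235, 115 and 86.2 CPM with stimulation alone and 307, 593, 341 and 390 CPM unstimulated. Its XCT790 values lay below all others, and the log2 fold change over unstimulated cells was -5.63 (adjusted p = 4.7e-15). Jun fell by 3.96 (adjusted p = 1.3e-13), Junb by 2.83 (adjusted p = 2.1e-10), Fosb by 3.28 (adjusted p = 6.8e-08) and Egr1 by 0.82 (adjusted p = 0.0017). For Fos, Jun, Junb and Fosb the direct test also placed XCT790 below stimulation alone, and with the retained share subtracted no member of the list was called in either direction. Of 12 further AP-1, BATF and IRF genes, 8 rose and 3 fell (median 0.88). Irf8 averaged 232 ± 25.4 CPM with XCT790, 301 ± 7.81 CPM with stimulation alone and 85.2 ± 11.3 CPM unstimulated, and Bach2, a repressor that restrains effector differentiation, 291 ± 37, 206 ± 38.6 and 81.2 ± 18.2 CPM. With the retained share subtracted, Irf8 was called lower with XCT790 than with stimulation alone (-0.77, edgeR adjusted p = 0.012). Bach2 was then not called (0.19, edgeR adjusted p = 0.54).

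Receptors that mark an activated T cell rose as a group. Of 17 tested, 13 were called higher and 0 lower with XCT790 (median 1.37), against a background of 37.7% of all genes higher, and stimulation alone called 15 higher. Il2ra (chr2:11642792-11693194), the high-affinity interleukin-2 receptor chain CD25, had 498, 418, 477 and 455 CPM with XCT790, 367, 312, 314 and 413 CPM with stimulation alone and 42.6, 77.7, 70 and 63 CPM unstimulated. All XCT790 libraries were above all others for Il2ra, and its rise over unstimulated cells was called (log2 fold change 2.87 with SE 0.17, edgeR adjusted p = 4.8e-15) while the difference from stimulation alone was not (log2 fold change 0.40 with SE 0.16, edgeR adjusted p = 0.06) and was -0.03 with the retained share subtracted (adjusted p = 0.95). Cd69, an early marker that retains cells in lymphoid tissue, had 431, 420, 483 and 474 CPM with XCT790, 363, 307, 320 and 319 CPM with stimulation alone and 126, 183, 92.4 and 95 CPM unstimulated. Here too the XCT790 values were the highest of the 3 groups, with a rise over unstimulated cells of 1.87 (adjusted p = 4.4e-08). The Cd69 difference from stimulation alone was 0.47 (adjusted p = 0.14), and 0.13 with the retained share subtracted (adjusted p = 0.82).

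The costimulatory TNF receptors followed. Tnfrsf4 (OX40) averaged 436 ± 23.2 CPM with XCT790, 316 ± 56 CPM with stimulation alone and 43.9 ± 8.04 CPM unstimulated, and Tnfrsf9 (4-1BB) 430 ± 24, 349 ± 36.5 and 37.2 ± 4.1 CPM. Tfrc, the transferrin receptor that brings iron to growing cells, rose by 4.59 (adjusted p = 1.7e-14), Cd200 by 3.49 (adjusted p = 5.7e-18) and Icos, the inducible costimulator, by 0.92 (adjusted p = 1.4e-05). Cd44, Cd40lg, Tnfrsf8 and Tnfsf14 were not called against unstimulated cells, with -0.17, 0.18, 0.74 and 0.36. In the direct test Cd5, Cd6, Cd200 and Tnfrsf4 were higher with XCT790 than with stimulation alone and Tnfsf14 lower, against 1 member higher, Cd5, and 1 lower, Tnfsf14, with the retained share subtracted. The Cd200 and Tnfrsf4 calls were also lost without stimulated replicate 2, and that of Tnfrsf4 without stimulated replicate 4 or XCT790 replicate 2, 3 or 4.

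Cytokine and chemokine genes had the highest median of the lists. Of 23 tested, 17 rose and 4 fell with XCT790 (median 2.90), and stimulation alone called 17 higher and 2 lower (median 3.92). Il2 (chr3:37120713-37125954), the T cell growth factor, had 58.5, 36.7, 71.6 and 69.5 CPM with XCT790, 113, 49.2, 121 and 94.1 CPM with stimulation alone and 0.764, 0.711, 0.445 and 0.751 CPM unstimulated. Every XCT790 library was far above the unstimulated ones (log2 fold change 6.45 with SE 0.50, edgeR adjusted p = 1.9e-12), and XCT790 and stimulated libraries overlapped with a difference of -0.67 (SE 0.34, edgeR adjusted p = 0.15). With the retained share subtracted that difference was -1.12 with an adjusted p of 0.038.

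The members that rose included chemokine genes and TNF family cytokines. Ccl22, which attracts cells with the receptor CCR4, had 71.8, 189, 100 and 46.4 CPM with XCT790, 80.7, 144, 94.6 and 53.9 CPM with stimulation alone and 0.382, 0.711, 0.5 and 0.417 CPM unstimulated. Both stimulated groups varied over a wide range and overlapped. Ccl1, a ligand of CCR8, rose by 6.45 (adjusted p = 9.6e-16), Ccl4 by 5.35 (adjusted p = 1.5e-09), Ccl3 by 3.85 (adjusted p = 5.8e-09) and Xcl1 by 3.57 (adjusted p = 4.6e-06). Tnf rose by 2.18 (adjusted p = 3.1e-08), Lta by 1.66 (adjusted p = 3.9e-08) and Tnfsf11, the ligand RANKL, by 2.66 (adjusted p = 1.4e-10). The members that fell were Ltb, Osm, Il21 and Csf1, with -2.20, -1.32, -1.49 and -1.09.

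Set directly against stimulation alone, 1 cytokine gene was higher and 6 were lower with XCT790 (median -0.58), against 0 higher and 5 lower with the retained share subtracted. Il3, a growth factor for blood cell precursors, had 1.52, 1.94, 2.21 and 3.22 CPM with XCT790 against 8.96, 2.86, 8.53 and 15.9 CPM with stimulation alone, and no count in the 4 unstimulated libraries. The XCT790 and stimulated Il3 values overlapped in range, and the difference was -2.02 (adjusted p = 0.0032). Over unstimulated cells Il3 was at least 58-fold higher with XCT790, taking 3 counts over the unstimulated group as the floor, which covers counting error only.

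**Figure D2:**
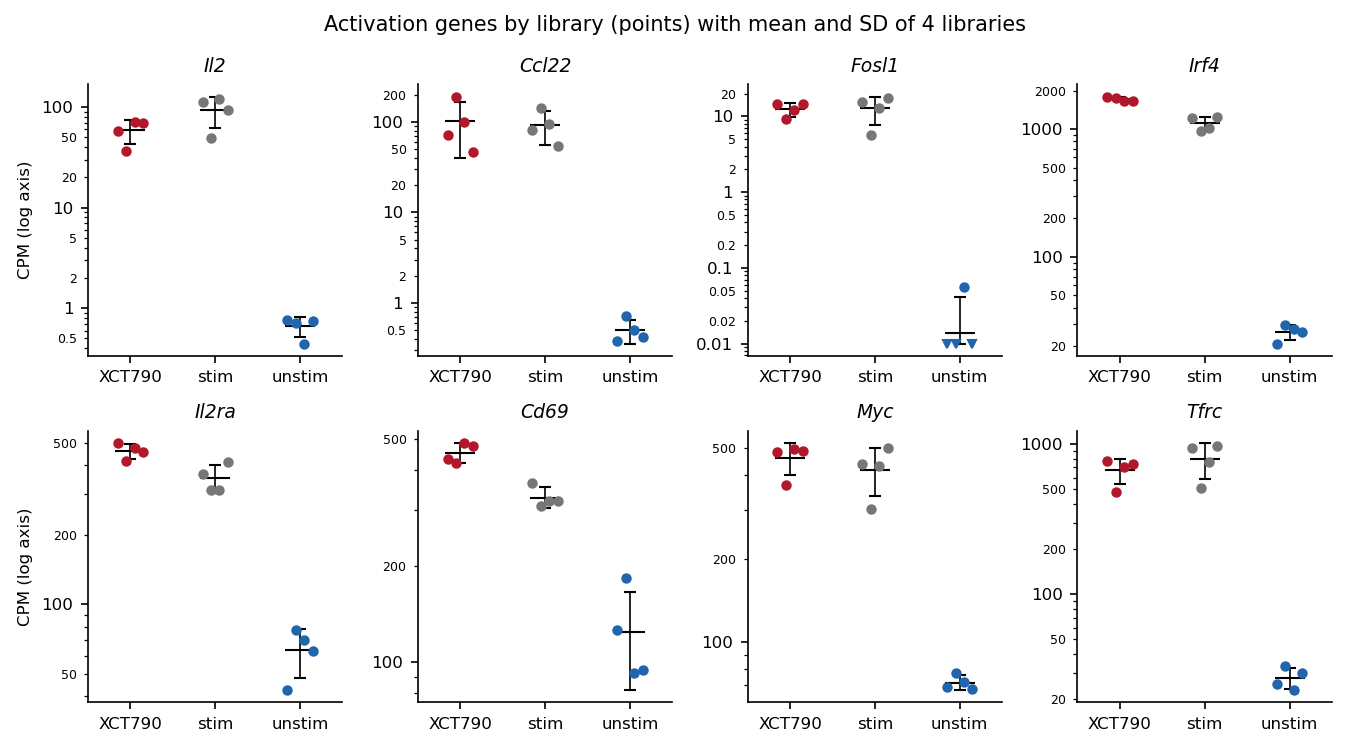
CPM on a log axis for 8 activation genes in each of 4 libraries of stimulated cells with XCT790, stimulated cells and unstimulated cells, with bars for the mean and SD; downward triangles mark libraries with no count. For all 8 genes every XCT790 library lay above every unstimulated library, and for Irf4, Il2ra and Cd69 above every stimulated one as well; with the retained share subtracted from the stimulated libraries none of these 3 was called against them.

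A rule for loss of activation was applied to the 1584 genes that stimulation alone raised at least 2-fold to a mean of at least 10 CPM. Of these, 1 was not called higher than unstimulated with XCT790, and none was called lower than unstimulated. This count follows in part from the unstimulated libraries that both comparisons share. A gene was taken as reduced when it was called at least 2-fold lower with XCT790 than with stimulation alone and the libraries did not overlap, and as lost when it was then no longer called higher than unstimulated. The reduced genes were 3, Ifng, Lif and Cdc6, and 0 were lost. The count of 0 depends on the conditions on level and overlap. Without them, 13 of the 1965 genes that stimulation alone raised at least 2-fold were at least 2-fold lower with XCT790. Of these, 4 were not called higher than unstimulated. Over all genes, 12.7% were called at least 2-fold lower in the direct test, without conditions on level, overlap or a rise with stimulation. These were 1564 genes as deposited and 157 with the retained share subtracted. Because the 1584 were chosen as high with stimulation alone, the count of 3 cannot be read against that share. At any fold, 14 of the 1584 were called lower and 370 higher with XCT790 than with stimulation alone, as deposited. These 2 counts were not made with the retained share subtracted. Over all genes that subtraction took the calls higher with XCT790 from 1036 to 475, so the 370 do not show that XCT790 raised activation genes.

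Ifng (chr10:118441046-118445894), interferon-gamma, the T helper 1 effector cytokine, had 11.9, 21.1, 27.3 and 22 CPM with XCT790, 43, 30.9, 71.9 and 52.1 CPM with stimulation alone and 5.29, 5.99, 4.33 and 4.42 CPM unstimulated. The 3 groups did not overlap. The level with XCT790 was lower than with stimulation alone (log2 fold change -1.27 with SE 0.37, edgeR adjusted p = 0.0094) and higher than in unstimulated cells (log2 fold change 2.04 with SE 0.40, edgeR adjusted p = 4.2e-05).

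Lif (chr11:4257568-4272514), a cytokine of the interleukin-6 family, had 11.2, 9.41, 11.6 and 17.2 CPM with XCT790, 23.8, 20.6, 22.3 and 33.7 CPM with stimulation alone and 1.59, 1.68, 1.33 and 1.96 CPM unstimulated. It was ordered like Ifng, with no overlap between groups, a difference from stimulation alone of -1.02 (adjusted p = 0.00034) and a rise over unstimulated cells of 2.90 (adjusted p = 1.4e-11). Cdc6 (chr11:98907709-98923942), which loads the replicative helicase onto DNA, had 4.8, 5.71, 4.66 and 5.26 CPM with XCT790, 13.7, 10, 8.28 and 11.3 CPM with stimulation alone and 1.85, 2.59, 2.28 and 2.34 CPM unstimulated. Its difference from stimulation alone was near the threshold (log2 fold change -1.08 with SE 0.39, edgeR adjusted p = 0.039) and its adjusted p was 0.055 to 0.092 when any 1 XCT790 library or stimulated replicate 1, 2 or 4 was left out. Leaving out 1 library at a time gave 1 to 4 reduced genes, with Ifng among them each time; Ifng was the single one without XCT790 replicate 1 or 3 or stimulated replicate 4. Without stimulated replicate 2, which retained the largest unstimulated share, the reduced genes were Ifng, Il3, Lif and Zbtb32.

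The single gene of the 1584 that was not called higher with XCT790 was Tnfsf14 (chr17:57189474-57194181), the TNF family ligand LIGHT. It had 21.3, 16.8, 22.9 and 20.5 CPM with XCT790, 36.3, 25.7, 39.1 and 39 CPM with stimulation alone and 15.3, 18.3, 16.8 and 13.1 CPM unstimulated. The XCT790 values overlapped the unstimulated ones (log2 fold change 0.36 with SE 0.24, edgeR adjusted p = 0.16) and lay below all stimulated ones (log2 fold change -0.78 with SE 0.23, edgeR adjusted p = 0.012). With the retained share subtracted, the rule was applied to 2119 genes in place of 1584. Of these, 15 met the rule for reduction and Tnfsf14 the rule for loss, where 157 of all genes were called at least 2-fold lower in the direct test. The 15 were Cdc6, Cish, Gfi1, Gm14718, Gzmb, Hemk1, Ifng, Il12rb1, Il2, Il3, Lif, Mcm10, Orc1, Tnfsf14 and Zbtb32, among them cytokines, a cytokine receptor chain, the cytotoxic protease gene Gzmb and replication genes.

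With XCT790, 11 genes were called at least 2-fold higher than in both stimulated and unstimulated cells, without overlap and at a mean of at least 10 CPM, against 0.324% of all genes at least 2-fold higher in the direct test: Slc6a9, Slc1a4, Myb, Eif4ebp1, Akr1c18, Cks2, Tmem120b, Rnf145, Tbc1d30, Zc3h12d and Acsl3. Slc6a9 (chr4:117835258-117869305), the glycine transporter GlyT1, had 13.5, 8.44, 11.9 and 12.5 CPM with XCT790, 2.34, 1.54, 2.79 and 2.36 CPM with stimulation alone and 1.34, 0.457, 0.667 and 0.835 CPM unstimulated. All XCT790 values lay above all others, and the difference from stimulation alone was 2.35 (adjusted p = 5.8e-08). Slc1a4, a carrier of alanine, serine and cysteine, had 29.3, 16.5, 25.6 and 25.3 CPM with XCT790, 9.83, 5.61, 9.33 and 8.51 CPM with stimulation alone and 3.25, 1.57, 2.17 and 4.51 CPM unstimulated, also without overlap, and a difference of 1.54 (adjusted p = 0.0011).

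Myb, a transcription factor of progenitor and memory T cells, had 29.3, 40.2, 36.6 and 33.8 CPM with XCT790, 10.4, 21.2, 13 and 15.3 CPM with stimulation alone and 9.43, 12.8, 9.95 and 11.5 CPM unstimulated. Stimulated and unstimulated Myb values overlapped, and only the XCT790 libraries stood apart. Eif4ebp1, a repressor of cap-dependent translation that mTOR inactivates, averaged 59.4 ± 11.4, 26.5 ± 4.58 and 12.6 ± 4.32 CPM in the XCT790, stimulated and unstimulated groups. Akr1c18, a progesterone-metabolising aldo-keto reductase, averaged 22.9 ± 3.43, 10.3 ± 1.39 and 0.15 ± 0.0976 CPM, and Rnf145, a ubiquitin ligase of sterol regulation, 264 ± 13.8, 127 ± 10.9 and 106 ± 9.3 CPM. With the retained share subtracted 3 of the 11 met the rule, Slc1a4, Slc6a9 and Tbc1d30. Missing the rule did not always mean a lost difference. Myb, Eif4ebp1, Cks2, Tmem120b and Rnf145 were still called higher than with stimulation alone, by 0.99, 0.89, 0.75, 1 and 0.98, and Akr1c18 was not (0.65, edgeR adjusted p = 0.17).

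**Figure D3:**
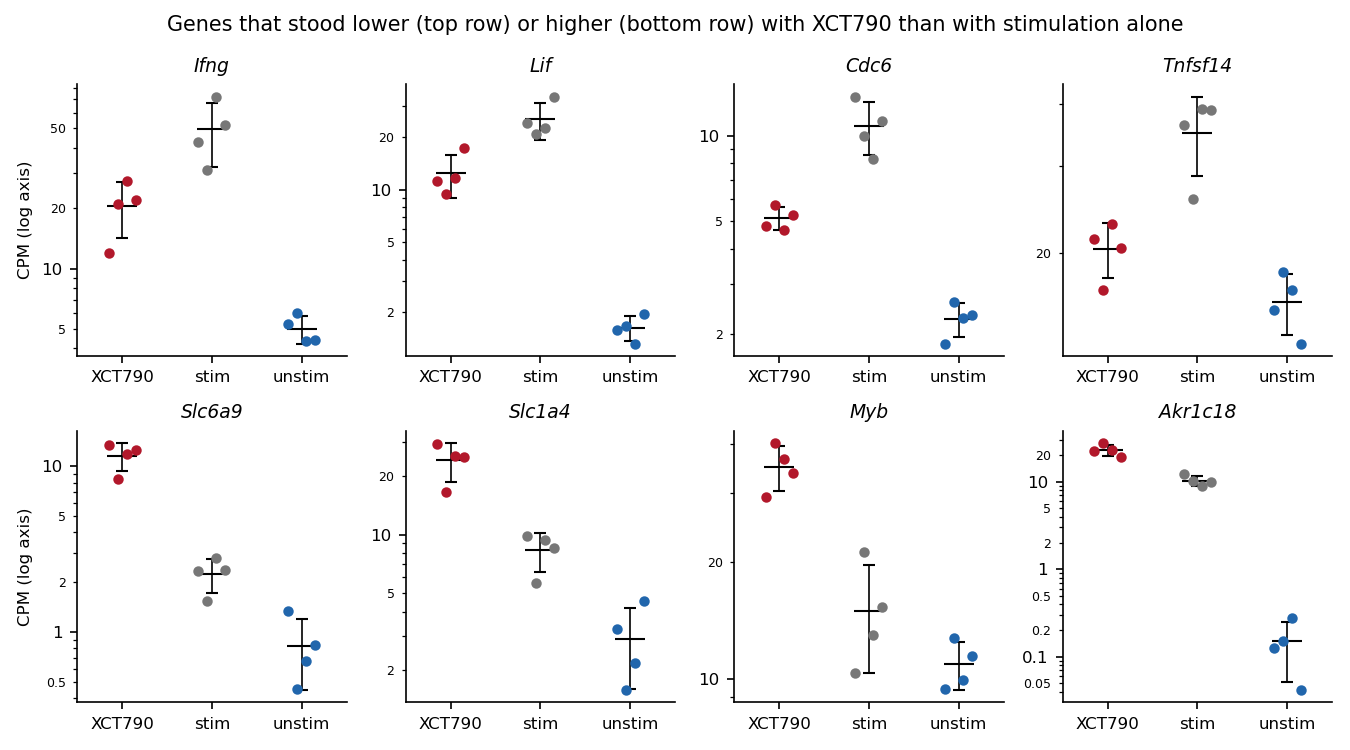
CPM on a log axis, by library, of genes that stood lower (Ifng, Lif, Cdc6 and Tnfsf14) or higher (Slc6a9, Slc1a4, Myb and Akr1c18) with XCT790 than with stimulation alone, with mean and SD of 4 libraries. In the top row the XCT790 libraries lie below all stimulated ones, and in the bottom row above them.

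Of 16 inhibitory receptor and anergy genes, 8 rose and 5 fell with XCT790 (median 0.67), against 37.7% of all genes higher and 41.3% lower. Pdcd1 (PD-1) averaged 97.7 ± 12 CPM with XCT790, 107 ± 27.3 CPM with stimulation alone and 26.1 ± 9.23 CPM unstimulated, and Lag3 139 ± 44.4, 132 ± 17.8 and 28.7 ± 5.83 CPM. Ctla4 and Tigit were not called, with -0.32 and 0.16, though Ctla4 was called lower without XCT790 replicate 2 (adjusted p = 0.03). Of 20 NF-kappaB and signal feedback genes, 13 rose and 4 fell (median 0.75). Among these, Nfkb2 rose by 2.48 (adjusted p = 6.4e-17), the MAP kinase phosphatase gene Dusp4 by 3.60 (adjusted p = 3.1e-13) and the receptor signalling antagonist gene Spry1 by 4.45 (adjusted p = 5.6e-15). Dusp1, another such phosphatase gene, fell by 4.51 (adjusted p = 1.6e-11). Against stimulation alone 8 members of this list were higher and 2 lower with XCT790, where 8.4% of all genes were higher and 20.2% lower. With the retained share subtracted 3 were higher and 0 lower, where 3.86% of all genes were higher and 3.01% lower.

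Of 15 interleukin-2 receptor and STAT5 response genes, 7 rose and 5 fell with XCT790 (median 0.20, and -0.05 with upper-quartile factors). These shares are near those of all genes, 37.7% higher and 41.3% lower. Cish, a STAT5 target that damps receptor signals, averaged 99.3 ± 19.1 CPM with XCT790, 153 ± 17.8 CPM with stimulation alone and 48.4 ± 6.3 CPM unstimulated, so that it rose (log2 fold change 1.04, edgeR adjusted p = 1.2e-05) and stood below stimulation alone (-0.62, edgeR adjusted p = 0.012, and 0.056 without XCT790 replicate 1). Pim2, a survival kinase gene, rose by 2.68 (adjusted p = 1.4e-11), and Socs3, a feedback inhibitor of cytokine signals, fell by 3.94 (adjusted p = 3.6e-11). Il2rb and Il2rg, the shared receptor chains, were not called, with 0.05 and 0.05; without unstimulated replicate 1, Il2rg was called at 0.14.

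Genes that define helper subsets fell more often than they rose, with 5 of 20 higher and 11 lower (median -1.11), against 41.3% of all genes lower. The risers were Tbx21 and Ifng of T helper 1 cells, Il5 and Il13 of T helper 2 cells and Il17a of T helper 17 cells. The 3 last were low, with means of 0.452, 1.69 and 0.596 CPM with XCT790. Foxp3, the regulatory T cell factor, averaged 21.4 ± 4.31 CPM with XCT790, 32.7 ± 8.49 CPM with stimulation alone and 65.2 ± 11.1 CPM unstimulated (log2 fold change -1.61, edgeR adjusted p = 2.6e-06). Gata3, the T helper 2 factor, fell by 1.66 (adjusted p = 1.2e-05), Maf by 4.44 (adjusted p = 1.1e-10) and the chemokine receptor gene Cxcr3 by 3.18 (adjusted p = 7.3e-16). Against stimulation alone 6 members were lower with XCT790, where 20.2% of all genes were lower, and 1 with the retained share subtracted, where 3.01% were.

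Growth genes rose together. All 32 genes of ribosome biogenesis and RNA polymerase I rose with XCT790 (median 2.21), 31 of them at least 2-fold. Ncl, the nucleolar protein nucleolin, averaged 2760 ± 439 CPM with XCT790, 2397 ± 630 CPM with stimulation alone and 529 ± 133 CPM unstimulated, and Polr1b, a subunit of RNA polymerase I, 268 ± 22.2, 225 ± 30 and 37.7 ± 3.72 CPM. All 20 cytosolic aminoacyl-tRNA synthetase genes rose (median 1.81), as did all 18 translation initiation genes (median 1.86), all 30 proteasome subunit genes (median 1.76) and all 18 nucleotide synthesis genes (median 1.97). Cars, the cysteinyl-tRNA synthetase, rose by 2.55 (adjusted p = 1.2e-16), Eif5a by 2.77 (adjusted p = 2.1e-15), Cad, which starts pyrimidine synthesis, by 2.90 (adjusted p = 1.8e-16) and Psma5 by 2.30 (adjusted p = 2.7e-14).

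These lists stood slightly above stimulation alone as deposited. The direct test called 15 of the 20 synthetases higher with XCT790 and 15 of the 30 proteasome genes, with a median difference of 0.33 in each list, and none lower. Without stimulated replicate 2 there were 9 in each list. With the retained share subtracted 0 synthetases were higher and 1 lower, and no proteasome gene was called. For ribosome biogenesis the direct test called 6 higher and 0 lower (median 0.17), against 0 higher and 5 lower (median -0.20) with the retained share subtracted, and 0 higher without stimulated replicate 2. Genes of cytosolic ribosomal proteins behaved otherwise: 1 of 29 rose, 8 fell and 20 were not called (median -0.14). The riser was Rps2, by 1.39 (adjusted p = 4.6e-07). The lowest log2 fold change was -0.70 for Rps24, and 0 members were called lower when unstimulated replicate 1 was left out and 15 when replicate 2 was.

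DNA replication genes rose, and most mitotic genes did not. Of 34 DNA replication genes, 32 rose with XCT790 and 1 fell (median 1.69). The direct test against stimulation alone called 1 higher and 1 lower (median 0.07). With the retained share subtracted it called 0 higher and 4 lower (median -0.27). Mcm5, a subunit of the replicative helicase, averaged 447 ± 13.6 CPM with XCT790, 441 ± 50.3 CPM with stimulation alone and 72.7 ± 5.29 CPM unstimulated, and Pcna, the polymerase clamp, 490 ± 17.8, 400 ± 40 and 155 ± 26.3 CPM. Orc1, of the origin recognition complex, rose by 4.28 (adjusted p = 1.7e-12). The member that was lower, Gins3, fell by 0.46 (adjusted p = 0.037), a call lost without XCT790 replicate 4 or unstimulated replicate 1, 3 or 4, and Rrm2 was not called, with 0.01.

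Of 18 G1 regulators, 9 rose and 7 fell (median 0.63). Cyclin D2 (Ccnd2) averaged 1419 ± 61.1 CPM with XCT790, 1469 ± 183 CPM with stimulation alone and 497 ± 21.9 CPM unstimulated. With the retained share subtracted, Ccnd2 was called lower with XCT790 than with stimulation alone (-0.4, edgeR adjusted p = 0.0072). Cyclin D1 (Ccnd1) had 0.293, 0.182, 0 and 0.215 CPM with XCT790, 8.72, 16.8, 8.28 and 5.72 CPM with stimulation alone and 42.3, 40.3, 27.8 and 28.8 CPM unstimulated, so its level was near 0 with XCT790. Cdk6 rose by 3.16 (adjusted p = 2.7e-15), and the cell cycle inhibitor gene Cdkn1b (p27) fell by 2.31 (adjusted p = 6.6e-14). Of 22 mitotic genes, 3 rose and 8 fell (median -0.58), and the share that fell was near the 41.3% of all genes. The risers were Aurka, Cdc20 and Cdca8, with 1.22, 0.97 and 0.54; the Cdca8 call was lost without any 1 of the XCT790 libraries or unstimulated replicate 3 or 4. Ccnb2, a mitotic cyclin, averaged 0.678 ± 0.298 CPM with XCT790, 2.17 ± 0.974 CPM with stimulation alone and 5.84 ± 1.24 CPM unstimulated.

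Genes of mitochondrial metabolism include the known targets of ERR-alpha. Esrra itself (chr19:6910977-6922048) had 26.5, 25.9, 26.2 and 25.6 CPM with XCT790, 40, 37.1, 42.6 and 31.1 CPM with stimulation alone and 52.2, 37.4, 43.2 and 37.2 CPM unstimulated. The XCT790 libraries were below all others, and the fall was called against unstimulated cells (log2 fold change -0.70 with SE 0.13, edgeR adjusted p = 2.5e-05) and against stimulation alone (log2 fold change -0.53 with SE 0.13, edgeR adjusted p = 0.003). Genes of mitochondrial respiration rose with XCT790 over unstimulated cells. Of 36 complex I genes, 29 rose and 1 fell (median 0.85), and of 39 genes of complexes II to V with cytochrome c, 34 rose and 1 fell (median 0.89). Stimulation alone called 27 higher and 1 lower for complex I and 31 higher and 0 lower for the other complexes.

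Ndufab1, the acyl carrier subunit of complex I, averaged 105 ± 7.08 CPM with XCT790, 90.2 ± 8.64 CPM with stimulation alone and 25.4 ± 8.07 CPM unstimulated. Cycs, cytochrome c, averaged 77.1 ± 3.85, 72.4 ± 5.28 and 19.6 ± 4.59 CPM, and Atp5b, the catalytic subunit of ATP synthase, 2942 ± 99.4, 2788 ± 241 and 1206 ± 266 CPM. Ndufv3 of complex I fell by 0.41 (adjusted p = 0.0065), and Sdha, the flavoprotein of complex II, fell by 0.24 (adjusted p = 0.0016), both calls that were lost without unstimulated replicate 1. In the direct test no complex I gene was called in either direction by edgeR or by DESeq2, and 4 were higher and 0 lower at an unadjusted edgeR p under 0.05 (median difference 0.21). Of the other complexes Cox7b was higher with XCT790 than with stimulation alone (0.44, edgeR adjusted p = 0.035) and Sdha lower (-0.18, edgeR adjusted p = 0.048), and with the retained share subtracted none was called. Each of the 2 calls was also lost when single libraries were left out, that of Cox7b without stimulated replicate 2, 3 or 4 or XCT790 replicate 2 and that of Sdha without stimulated replicate 1, 2 or 3 or XCT790 replicate 1, 3 or 4. The ERR element TNAAGGTCA was searched on both strands from 250 bases before to 50 after each start in RefSeq (GRCm38.p6). It was found for 1 of 32 matched complex I genes (Ndufb4) and 2 of 30 of the other complexes (Sdhd and Atp5g3). For the TCA cycle and pyruvate entry it was found for 0 of 20 matched genes, and the Esrra promoter held no match. Of all 32851 promoters, 1.28% held it. A gene counted if any of its promoters held the element, so these shares are not counted alike. A match says nothing of binding.

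Mitochondrial protein synthesis and import rose as well. Of 34 mitochondrial ribosomal protein genes, 33 rose and 0 fell (median 1.50), and of 17 biogenesis regulators and import genes, 12 rose and 3 fell (median 0.75). Hspd1, the mitochondrial chaperonin, averaged 1680 ± 149 CPM with XCT790, 1449 ± 230 CPM with stimulation alone and 141 ± 14.3 CPM unstimulated. Pprc1, a coactivator related to PGC-1, rose by 1.79 (adjusted p = 6.7e-12) and Tfb2m, a mitochondrial transcription factor, by 1.61 (adjusted p = 3.6e-14). The members that fell were Esrra, Nrf1 and Polg. Of 22 genes of the TCA cycle and pyruvate entry, 17 rose and 3 fell (median 0.63). Pdk1, the kinase that closes pyruvate entry and a gene of this list, had 119, 120, 108 and 118 CPM with XCT790, 167, 201, 201 and 157 CPM with stimulation alone and 369, 312, 419 and 344 CPM unstimulated, with no overlap between groups and a log2 fold change of -1.64 (adjusted p = 3.6e-14) over unstimulated cells. With the retained share subtracted, the Pdk1 difference from stimulation alone was 0.11 and not called (edgeR adjusted p = 0.8).

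Of 17 fatty acid oxidation genes, 6 were higher and 7 lower (median 0.06), shares near those of all genes, 37.7% higher and 41.3% lower. Cpt1a, the carnitine transferase that admits fatty acids to mitochondria, averaged 16 ± 1.65 CPM with XCT790, 31.1 ± 9.13 CPM with stimulation alone and 90.7 ± 12.1 CPM unstimulated (-2.50, edgeR adjusted p = 6.5e-13). Acaa2, the last enzyme of the cycle, fell by 1.54 (adjusted p = 3.9e-10), and Etfa, which passes electrons from acyl-CoA dehydrogenases, rose by 0.65 (adjusted p = 9.5e-06). Without XCT790 replicate 1, 2, 3 or 4 or unstimulated replicate 2, 3 or 4, 2 or 3 rose. Under the other scalings tried 1 to 3 rose, and the median was -0.19 with upper-quartile factors. The direct test called 2 members higher and 2 lower, against 4 higher and 0 lower with the retained share subtracted. Of 19 glycolysis genes, 13 rose and 2 fell (median 1.20). Hk2, the inducible hexokinase, averaged 91.2 ± 22.9 CPM with XCT790, 70.4 ± 20.7 CPM with stimulation alone and 5.34 ± 1.88 CPM unstimulated. Slc16a1, the lactate carrier MCT1, rose by 3.31 (adjusted p = 4.7e-18), and the glucose transporter gene Slc2a3 fell by 1.07 (adjusted p = 7.4e-09) while Slc2a1 rose by 1.26 (adjusted p = 1.1e-07).

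Lipid synthesis genes rose, and part of them stood above stimulation alone. Of 16 fatty acid synthesis genes, 10 rose and 2 fell (median 1.40). In the direct test 8 were higher with XCT790 than with stimulation alone, against 8.4% of all genes, and 5 with the retained share subtracted. Fasn, fatty acid synthase, had 984, 720, 902 and 972 CPM with XCT790, 579, 404, 548 and 719 CPM with stimulation alone and 110, 140, 107 and 154 CPM unstimulated. The 3 groups did not overlap for Fasn, and the difference from stimulation alone was 0.67 (adjusted p = 0.0043) as deposited and 0.29, not called (adjusted p = 0.33), with the retained share subtracted. Scd2, a fatty acid desaturase gene, stood at 128 ± 11.3 CPM with XCT790, 53.9 ± 11.4 CPM with stimulation alone and 92.9 ± 11.9 CPM unstimulated, called against stimulation alone (1.25, edgeR adjusted p = 0.00024) and not against unstimulated cells (0.46, edgeR adjusted p = 0.082).

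Of 20 cholesterol genes, 17 rose and 2 fell with XCT790 (median 1.58). The risers included Cyp51, the lanosterol demethylase of cholesterol synthesis, at 411 ± 21.8 CPM with XCT790, 316 ± 41.8 CPM with stimulation alone and 45.7 ± 9.48 CPM unstimulated (log2 fold change 3.17 with SE 0.15, edgeR adjusted p = 4.1e-17). The 2 that fell, Abca1 and Abcg1, export cholesterol, with -3.91 (adjusted p = 5.4e-10) and -4.02 (adjusted p = 3.2e-15). The direct test called 11 members higher and 2 lower than stimulation alone, 7 higher without stimulated replicate 2 or XCT790 replicate 2, and 1 higher and 0 lower with the retained share subtracted.

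Genes of amino acid supply rose. Of 14 serine and one-carbon genes, 13 rose (median 2.42), and of 14 amino acid transporter genes, 12 rose (median 1.85), with none lower in either list. Shmt1 and Shmt2, the serine hydroxymethyltransferases, rose by 4.14 (adjusted p = 2.1e-20) and 3.14 (adjusted p = 9.5e-20), and Phgdh, the first enzyme of serine synthesis, averaged 401 ± 6.02 CPM with XCT790, 249 ± 23.1 CPM with stimulation alone and 74.7 ± 15.4 CPM unstimulated. Slc7a5, the large neutral amino acid carrier, averaged 564 ± 55.9, 394 ± 69.8 and 90.2 ± 31.7 CPM. Compared with stimulation alone, 10 of 14 were higher with XCT790 in each list, and with the retained share subtracted 2 one-carbon genes and 4 transporters were higher.

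Of 14 genes of the ATF4 response to amino acid shortage and endoplasmic reticulum stress, 7 were higher and 5 lower (median 0.37), against 37.7 and 41.3% of all genes, and with stimulation alone 5 were higher and 6 lower. Chac1, a glutathione-degrading enzyme, had 6.32, 3.34, 4.49 and 5.69 CPM with XCT790, 0.937, 0.33, 0.449 and 0.63 CPM with stimulation alone and 0.382, 0, 0 and 0.167 CPM unstimulated. All XCT790 values were above all others, and Chac1 differed from stimulation alone by 3.08 (adjusted p = 1.4e-05), and by 2.72 (adjusted p = 0.0016) with the retained share subtracted. Trib3, an inhibitory pseudokinase, had 15.7, 10.3, 13.3 and 16.8 CPM with XCT790, 5.21, 3.13, 5.94 and 2.84 CPM with stimulation alone and 11.3, 5.74, 8.33 and 7.3 CPM unstimulated, overlapping between XCT790 and unstimulated cells. Asns, asparagine synthetase, rose by 4.07 (adjusted p = 2.7e-14) and exceeded stimulation alone by 0.89 (adjusted p = 0.0017) as deposited, against 0.44, not called (adjusted p = 0.23), with the retained share subtracted. In the direct test 4 members of the list were higher and 2 lower, against 2 higher and 0 lower with that share subtracted. Ddit4, an inhibitor of mTOR signalling, fell by 3.09 (adjusted p = 8e-06), and Ppp1r15a, which helps restart translation after stress, fell by 2.46 (adjusted p = 1.6e-08).

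Endoplasmic reticulum folding genes rose in 14 of 19 and fell in 2 (median 1.18), and 14 were higher with XCT790 than with stimulation alone, 6 with the retained share subtracted. Calr, the chaperone calreticulin, averaged 2094 ± 37.6 CPM with XCT790, 1379 ± 60.1 CPM with stimulation alone and 607 ± 80.3 CPM unstimulated. Its difference from stimulation alone was 0.60 (adjusted p = 7.1e-07), and that of Xbp1, the transcription factor of the unfolded protein response, 0.70 (adjusted p = 1e-04). Heat shock genes rose in 9 of 15 and fell in 3 (median 0.99). The falls included Hspa1a and Hspa1b, near-identical copies that may share reads, at 0.274 ± 0.0402 and 1.01 ± 0.453 CPM with XCT790 against 5.77 ± 6.18 and 11.4 ± 12.5 CPM unstimulated.

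Of 15 NRF2 genes 11 rose and 4 fell (median 1.07). Txnrd1, thioredoxin reductase, rose by 1.79 (adjusted p = 5.3e-13), and Hmox1, haem oxygenase, fell by 5.44 (adjusted p = 1.8e-12). Of 18 p53 and apoptosis genes, 11 rose and 4 fell (median 0.77). Bcl2l1, the survival gene Bcl-xL, averaged 331 ± 41.2 CPM with XCT790, 237 ± 33.6 CPM with stimulation alone and 32.5 ± 3.41 CPM unstimulated. The p53 target Cdkn1a rose by 4.19 (adjusted p = 8.9e-06), with no difference called from stimulation alone (log2 fold change 0.00, edgeR adjusted p = 1), while the death-promoting genes Bbc3 and Pmaip1 fell by 1.98 (adjusted p = 0.0042) and 1.85 (adjusted p = 8.1e-08).

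Genes of the resting state fell with XCT790. Of 22 resting and homing genes, 18 fell and 4 rose (median -1.93), and stimulation alone called 17 lower and 3 higher (median -1.18). With the retained share subtracted, stimulation alone called 17 lower and 4 higher (median -2.19). Il7r, the receptor for the survival cytokine interleukin-7, had 3.86, 7.35, 5.28 and 24 CPM with XCT790, 76.3, 338, 235 and 116 CPM with stimulation alone and 374, 813, 783 and 513 CPM unstimulated. The 3 groups did not overlap, and the log2 fold change over unstimulated cells was -5.93 (adjusted p = 5.2e-12). S1pr1, which lets T cells leave lymphoid organs, had 7.79, 18, 8.69 and 32.1 CPM with XCT790, 151, 199, 223 and 145 CPM with stimulation alone and 743, 482, 720 and 658 CPM unstimulated. Klf2, a factor that drives S1pr1, fell by 4.32 (adjusted p = 3.6e-13) and Tcf7, a factor of naive and memory cells, by 1.64 (adjusted p = 3.4e-10).

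The 4 members that rose were Ccr7, Bach2, Foxp1 and Slfn2. Ccr7, the lymph node homing receptor, had 1369, 1494, 1830 and 1534 CPM with XCT790, 844, 916, 1016 and 754 CPM with stimulation alone and 755, 510, 691 and 605 CPM unstimulated. All XCT790 values were above all stimulated ones, which overlapped the unstimulated range, and Ccr7 rose over unstimulated cells by 1.28 (adjusted p = 4.8e-09) and exceeded stimulation alone by 0.82 (adjusted p = 5.8e-05). In the direct test 14 of the 22 were lower with XCT790 than with stimulation alone and 3 higher, and with the retained share subtracted 0 were lower and 1 higher (median -0.75 as deposited and 0.20 subtracted). Of 14 T cell identity genes, 9 fell and 3 rose (median -0.60). The surface protein gene Thy1 fell by 2.40 (adjusted p = 3.2e-13) and the receptor kinase gene Lck by 0.80 (adjusted p = 9.4e-08), and the risers were Cd28 by 1.65 (adjusted p = 2e-14), Zap70 by 1.31 (adjusted p = 1.3e-11) and Cd27 by 0.46 (adjusted p = 6.1e-06).

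Interferon-stimulated genes had the lowest median of the lists that are not markers of other cells. They are switched on by the factor complex ISGF3, which includes STAT2 and IRF9 and binds the interferon-stimulated response element (ISRE) in their promoters. Of 24 tested, 21 fell at least 2-fold and 0 rose with XCT790 (median -4.26), against 27.9% of all genes lower by at least 2-fold, and stimulation alone called 22 lower and 0 higher (median -1.46). The direct test called 0 higher and 21 lower than stimulation alone (median -2.83), against 0 higher and 2 lower (median -0.80) with the retained share subtracted.

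Promoters of 4 members are shown for the ISRE core they hold. They run from 250 bases before to 50 after the start of transcription, in the direction of the gene, from RefSeq with build GRCm38.p6, and capitals mark each match to GAAANNGAA on either strand; overlapping matches run together. Ifit1 lies at chr19:34640639-34640938 on the plus strand, Ifit3 at chr19:34583279-34583578 on the plus strand, Isg15 at chr4:156200769-156201068 on the minus strand and Rsad2 at chr12:26456403-26456702 on the minus strand.
Ifit1: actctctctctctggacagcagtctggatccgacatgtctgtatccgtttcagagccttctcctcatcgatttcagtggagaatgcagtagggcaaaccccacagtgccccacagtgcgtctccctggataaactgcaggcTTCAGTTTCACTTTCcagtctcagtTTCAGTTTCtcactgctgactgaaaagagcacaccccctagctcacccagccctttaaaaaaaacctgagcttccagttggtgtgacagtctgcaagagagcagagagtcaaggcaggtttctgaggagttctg
Ifit3: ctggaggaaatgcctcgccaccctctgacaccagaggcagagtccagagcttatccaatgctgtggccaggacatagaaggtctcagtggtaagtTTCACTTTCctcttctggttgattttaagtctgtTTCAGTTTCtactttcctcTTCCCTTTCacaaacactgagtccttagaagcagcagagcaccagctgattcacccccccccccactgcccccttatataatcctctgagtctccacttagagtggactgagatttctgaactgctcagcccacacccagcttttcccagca
Isg15: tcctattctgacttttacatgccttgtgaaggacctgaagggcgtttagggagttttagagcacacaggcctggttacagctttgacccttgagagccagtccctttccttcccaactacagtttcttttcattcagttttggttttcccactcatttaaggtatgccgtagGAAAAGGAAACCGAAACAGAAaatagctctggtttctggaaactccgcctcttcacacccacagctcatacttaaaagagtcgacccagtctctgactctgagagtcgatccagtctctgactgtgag
Rsad2: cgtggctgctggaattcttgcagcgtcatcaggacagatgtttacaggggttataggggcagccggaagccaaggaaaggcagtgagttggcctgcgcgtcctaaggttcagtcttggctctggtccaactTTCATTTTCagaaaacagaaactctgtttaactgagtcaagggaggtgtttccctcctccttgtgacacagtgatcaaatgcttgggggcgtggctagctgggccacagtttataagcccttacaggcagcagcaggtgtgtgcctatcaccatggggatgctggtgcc
Ifit1, Ifit3 and Isg15 held 3 matches each and Rsad2 1. The motif was present for 11 of the 18 genes matched for this list (61.1%) and in 8.56% of all 32851 promoters of 300 bases. A gene counted if any of its promoters held the motif, so the shares are not counted alike. A match is a description of the letters and not a measured site.

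Ifit1, an RNA-binding antiviral protein, had 1.41, 1.64, 1.36 and 1.5 CPM with XCT790, 7.96, 16.9, 8.78 and 7.51 CPM with stimulation alone and 28.8, 33.7, 26.4 and 27.3 CPM unstimulated. Its 3 groups did not overlap (log2 fold change -4.29 with SE 0.39, edgeR adjusted p = 6.4e-11). Isg15, a ubiquitin-like modifier, had 3.92, 5.4, 4.09 and 3.49 CPM with XCT790, 15.2, 17, 13 and 11.8 CPM with stimulation alone and 57.2, 25.6, 25.2 and 27.5 CPM unstimulated (log2 fold change -3.00 with SE 0.28, edgeR adjusted p = 7.2e-11). Rsad2 (viperin) had 0.82, 0.668, 0.17 and 0.697 CPM with XCT790, 16.1, 9.02, 4.64 and 5.72 CPM with stimulation alone and 70.2, 17.7, 13.9 and 19.9 CPM unstimulated, with replicate 1 of the unstimulated group far above the others. Ifit3 averaged 0.35 ± 0.171, 7.08 ± 3.36 and 25.3 ± 6.07 CPM in these groups. Irf7, which amplifies the type I interferon response, fell by 5.52 (adjusted p = 5.2e-14), the RNA sensor gene Ddx58 (RIG-I) by 5.16 (adjusted p = 6.5e-16) and Stat2 by 2.29 (adjusted p = 5.1e-10). The members without a call against unstimulated cells included Ifi35 and Bst2, with -0.30 and 0.27. Without unstimulated replicate 1 Bst2 was called higher, by 0.56, and without XCT790 replicate 2 or unstimulated replicate 2 or 4 Ifi35 was called lower. The summed level of the myeloid markers, in CPM of the library total, was 8.06 to 16.28 CPM with XCT790, 529.6 to 1813 CPM with stimulation alone and 2582 to 5148 CPM unstimulated, and their part in this result was not tested.

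**Figure D4:**
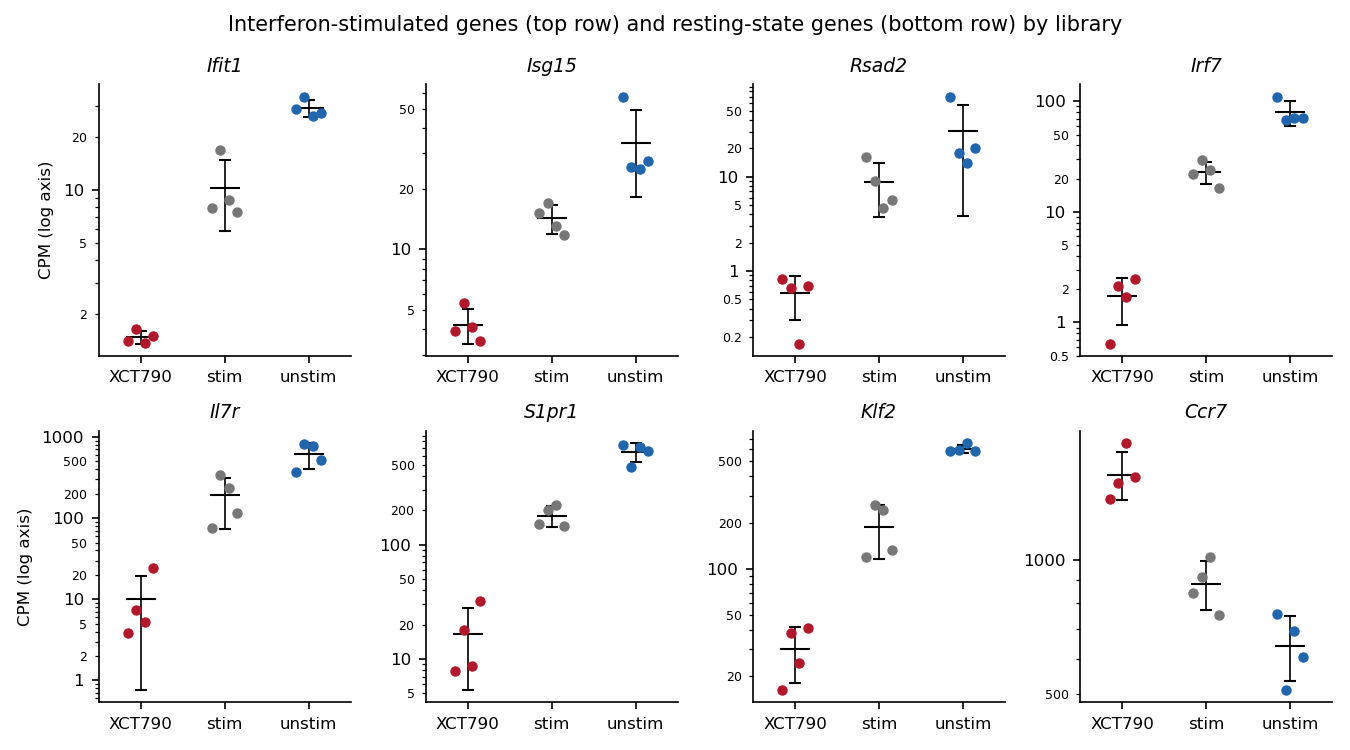
CPM on a log axis, by library, of 4 interferon-stimulated genes (top row) and 4 resting-state genes (bottom row) in stimulated cells with XCT790, stimulated cells and unstimulated cells, with mean and SD of 4 libraries. The XCT790 libraries lie lowest in 7 of the 8 panels and highest for Ccr7.

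The 10 largest falls of the comparison were those of Emr4, Col14a1, Cd163, Pilrb2, Adamdec1, Vstm4, Sirpb1a, Clec4a1, Mrc1 and Clec4a3, most of them known from macrophages, dendritic cells or stroma. Emr4, an adhesion receptor of macrophages, had 0.0585, 0, 0 and 0 CPM with XCT790, 33, 91.4, 47 and 35.7 CPM with stimulation alone and 161, 237, 156 and 172 CPM unstimulated. Its 1 count over the XCT790 libraries against 14114 over the unstimulated ones gave a ratio, unstimulated over XCT790, of 12739 with an exact 95% counting interval of 2286 to 503186. Mrc1, the macrophage mannose receptor, had 0.176, 0.0607, 0 and 0.268 CPM with XCT790, 21.1, 142, 52.7 and 54.3 CPM with stimulation alone and 106, 358, 173 and 250 CPM unstimulated (log2 fold change -10.68 with SE 0.73, edgeR adjusted p = 9.9e-14).

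Col14a1, a collagen gene, had no count with XCT790 and was at least 667-fold lower than unstimulated, taking 3 counts over the XCT790 group as the floor. By the same floor Pilrb2 was at least 469-fold, Vstm4 at least 356-fold and Sirpb1a at least 345-fold lower. For genes with so few counts the fitted fold change rests on a prior count and is left out.

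Marker lists of other cells fell throughout. All 20 myeloid and dendritic markers tested fell at least 2-fold (median -7.80), with the summed levels given above. Csf1r, the receptor that macrophages need to survive, averaged 0.633 ± 0.439, 177 ± 116 and 599 ± 220 CPM in these groups, and C1qa, a complement gene of tissue macrophages, 0.806 ± 0.321, 102 ± 37.1 and 369 ± 56.7 CPM. In the WT libraries stimulated with the study's other inhibitor, CompA, the summed myeloid level was 9.333 to 14.44 CPM.

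Of 14 B cell markers 11 fell and 0 rose (median -3.23), with sums of 51.18 to 64.45, 104.8 to 131.3 and 273.7 to 311.4 CPM with XCT790, with stimulation alone and unstimulated. Members without a call included Ms4a1 and Fcer2a, with -0.94 and 0.41. All 7 neutrophil markers tested fell (sums 0.3687 to 5.841, 4.562 to 48.66 and 20.7 to 222.1 CPM), as did 8 of 10 CD8 and NK markers (28.77 to 32.1, 60.35 to 78.62 and 139.7 to 160.4 CPM). All 5 tested of the 12 erythroid and platelet markers fell (2.423 to 15.7, 20.74 to 108 and 45.7 to 293.7 CPM), and all 4 tested of the 12 stromal and endothelial markers (13.96 to 17.68, 34.18 to 105.3 and 122.5 to 267.8 CPM). The groups of each list did not overlap between XCT790 and unstimulated libraries. The part of these cells in the falls of lysosomal and early response genes was not tested. Lysosome and autophagy genes fell in 14 of 22 and rose in 3 (median -0.49), with the cathepsin gene Ctsb at 169 ± 19.2, 568 ± 185 and 1672 ± 292 CPM.

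**Figure D5:**
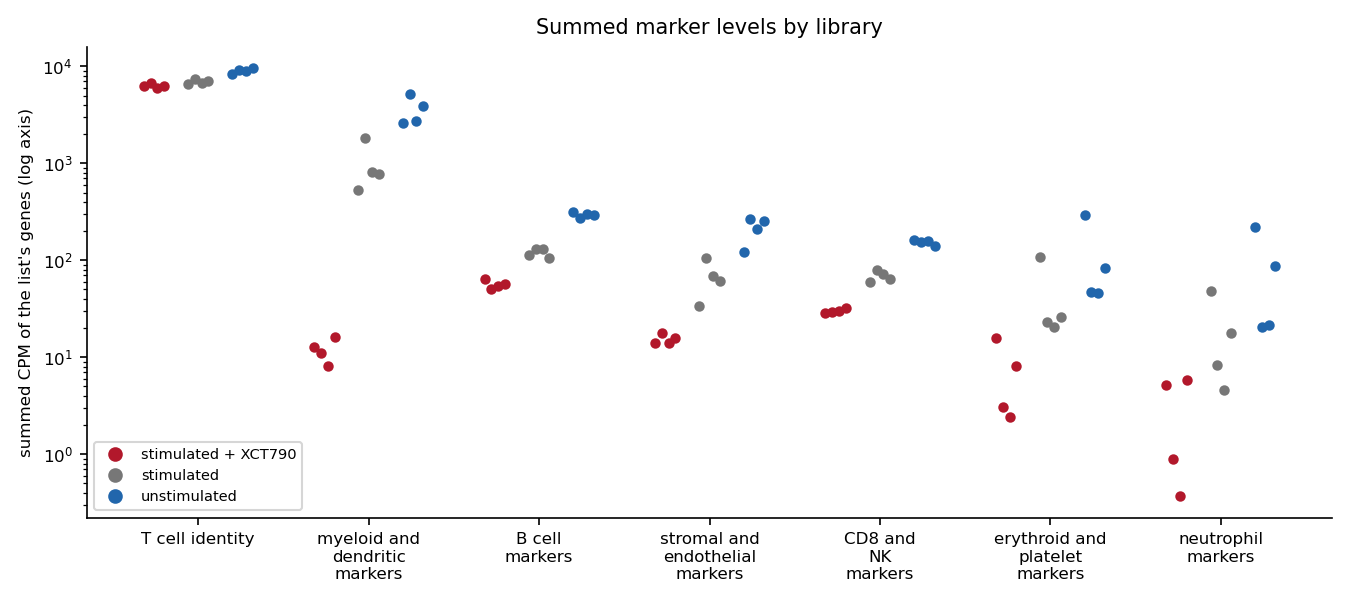
Summed CPM, on a log axis, of T cell identity genes and of markers of 6 other cell groups in each library of stimulated cells with XCT790, stimulated cells and unstimulated cells. T cell genes lie between 5964 and 9534 CPM in all libraries, while the myeloid sum is 8.06 to 16.28 CPM with XCT790 and 2582 to 5148 CPM unstimulated.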

How the data were processed

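Poly(A) RNA of 32 libraries was sequenced by the authors. The authors deposited 1 file of whole-number read counts per gene for each library, not normalized, with 24302 genes and 5 summary lines. Per the submitters' processing notes, Trimmomatic 0.36, HISAT2 2.1.0, SAMtools, HTSeq 0.9.1, R 3.4.4 and DESeq2 1.18.1 were used with build mm10; their settings, the annotation and the strand option are not given in the sources used here. Overlapping or antisense genes and near-identical copies may therefore share reads. In the 8 libraries compared, reads in no gene were 3.5 to 6.37% and ambiguous reads 0.699 to 1.22%, and reads without a unique place numbered 67.7 to 91.3 per 100 gene counts. These lines were kept out of library sizes and tests.

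Counts were fitted with edgeR 4.0.16 (limma 3.58.1, R 4.3.3): TMM factors, filterByExpr, 1 quasi-likelihood fit with a mean for each of the 8 groups of 4 libraries, Benjamini-Hochberg adjustment across 12332 genes. Gene totals of 16938473 to 21596749 per library set the counting precision, and intervals and floors cover counting error only. No 2 libraries of a group agreed within sampling noise (chi-square per degree of freedom 3.94 to 126). The retained share is the median, over genes with an unstimulated mean of at least 10 CPM that fell below 2% of it in 3 other stimulated groups (WT with CompA, KO, and KO with CompA), of a library's level over the unstimulated mean. It was subtracted for every gene alike as an alternative, with counts rounded and set to at least 0. The other alternatives were other scalings, no filter, DESeq2 1.42.0, fewer libraries in the fit, a replicate block, a test against 2-fold and leaving out each library.

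Members, the 43 gene lists and the tests were chosen with earlier results of these data known. Genes were named as the 10 largest rises and 10 largest falls, those meeting the rules for reduced, lost or higher levels, up to 4 members of each list with the smallest adjusted p, and Nr4a1, Esrra, Il2, Ifng, Il2ra, Cd69, Myc, Cd3e and Cd4; other members were named for their role after their values were seen. Trac, Twnk, Ighm, Ighd, Igkc, Jchain, Adgre1 and Ly6g were not analysed here, and some other members of the lists count in the totals but are not reported here by name. The fit was tested on simulated data with known changes before use.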

Additional observations from a re-analysis of the deposited data

Results flagged for a closer look

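Single libraries stood apart from the other 3 of their group in 6 of 122 groups of 4 examined, by the gap to the nearest library as a share of the group's range (Dixon's test at 95%); chance gives about 1 in 20 such groups. With XCT790, replicate 2 was lowest for Spin4, at 44.4 CPM against 68.7 to 71 CPM, and for Myc, at 369 CPM against 485 to 498 CPM. Replicate 1 was lowest for the summed resting and homing genes, at 4890 CPM against 5320 to 5404 CPM. In stimulated cells without inhibitor, replicate 2 was highest for Clec4a3, at 16.1 CPM against 6.88 to 7.34 CPM; this library also retained the largest unstimulated share. The summed erythroid and platelet markers were highest in replicate 1 of the stimulated cells, at 108 CPM against 20.74 to 25.84 CPM, and in replicate 1 of the unstimulated cells, at 293.7 CPM against 45.7 to 83.76 CPM. Each of these libraries was left out in turn among the alternatives below, and why they stood apart was not tested.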

How the results depend on the processing

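Testing against a 2-fold change in place of any change called 1881 genes higher and 2845 lower with XCT790 than unstimulated, and 7 genes higher and 986 lower than with stimulation alone; by it 0 activation genes were reduced and 1 gene, Slc6a9, was higher than both other groups. With the retained unstimulated share subtracted, 475 genes were higher and 371 lower than with stimulation alone. At least 2-fold higher were 75 genes and at least 2-fold lower 157. In that setting 15 of 2119 activation genes were reduced, against 3 of 1584 as deposited, 1 was lost and 3 genes were higher than both groups. Upper-quartile factors gave 1 lost gene, Cdc6, whose rise over unstimulated cells then missed the threshold. Against stimulation alone, 577 genes were higher with library totals and 662 in a fit of the 16 WT libraries, and 580 to 1070 when 1 library was left out, the lowest without stimulated replicate 2. Library totals, a fit of the 16 WT libraries and the replicate block each gave 7 genes higher than both groups, all 7 among the 11. Leaving out 1 library at a time gave 1 to 4 reduced genes, 0 lost, and 10 to 12 higher than both groups. Called differences from stimulation alone changed sign for Cd200 (-0.02), Jun (0.37) and Junb (0.24) with the retained share subtracted, none of them then called; no other gene whose value is given reversed a call in the alternatives run. That subtraction also changed the sign of the median against stimulation alone in 14 of 43 lists. Upper-quartile factors changed the sign of the median against unstimulated in 2 lists (fatty acid oxidation, interleukin-2 and STAT5) and library totals in 1 (fatty acid oxidation). Alternatives for list counts against stimulation alone, and for genes named for their role, were chosen after seeing the data. Over all alternatives, gene values against unstimulated kept their status, called or not called, in 4475 cases. A call was lost in 49 cases and gained in 28. Against stimulation alone these numbers were 964, 75 and 20. List counts moved by over 1.5 times in 86 cases against unstimulated and in 306 against stimulation alone, 58 of these with the share subtracted. The test against 2-fold, which asks for more, accounts for 57 lost calls, and the cause was not tested for the rest. Scaling moved the median of all genes against unstimulated by -0.25 (upper-quartile) and -0.18 (library totals) on the log2 scale. Of the calls against unstimulated, 47.7% were higher with TMM, 41.5% with library totals, 38.6% with upper-quartile factors and 43.5% with DESeq2; of those against stimulation alone, 29.4% and, with library totals, 16.9%. Ribosomal protein genes called lower numbered 8, against 16 with upper-quartile factors or library totals. The labels give no shared replicate, only runs of 4 consecutive library numbers. Over 8199 genes, deviations from the group means in runs 1 to 4 correlated at -0.51, -0.55, -0.08 and 0.41 between XCT790 and unstimulated libraries and at -0.09, 0.27, -0.09 and 0.38 between XCT790 and stimulated ones, so the runs were not taken to pair these; 1 library in each correlated best with its own run. Between stimulated and unstimulated libraries they correlated at 0.71, 0.42, 0.48 and 0.72, with 3 libraries best matched to their own run. No label pairs these libraries, and the part of the retained unstimulated share in these correlations was not tested. The block by run gave 4780 genes higher and 4917 lower for XCT790 against unstimulated, 4614 higher and 4504 lower for stimulation alone against unstimulated, and 828 higher and 3056 lower for XCT790 against stimulation alone, where mitotic genes called lower numbered 13 in place of 2. It moved no list count given for stimulation alone by over 1.5 times. At 1 to 3 counts a group, depth limits the size of a change.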
